A study of Mus musculus with 24 samples.

Results

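The genes described here are 10 marker genes of the thymic epithelium: Prss16, Tbata, Psmb11, Krt18, Krt8, Krt5, Foxn1, Dll4, Ccl25 and Aire. They were chosen by name as known epithelial genes, but with earlier results of these data known. All 10 were found among the 21878 gene symbols counted. Poly(A) RNA was sequenced from 21 thymic lymphomas that arose in carbon-ion irradiated mice and from 3 normal thymus samples, as 24 libraries in all. The mice were female B6C3F1, a first-generation hybrid strain, and the lymphoma mice received 4 weekly whole-body doses of 1.6 Gy begun at 4 to 5 weeks of age. The labels put the same irradiation on the normal thymus samples, whose titles also carry a mark 7W that is not explained, so whether these 3 mice were irradiated is not clear from the labels. RNA came from single-cell suspensions of lymphoma cells or of thymocytes, so the epithelium enters only as far as its cells, or their RNA, were carried into a suspension. The lymphomas form 2 sets, 11 with and 10 without an Ikzf1 mutation, a gene that encodes the lymphoid transcription factor Ikaros. Whether the 21 lymphomas came from as many animals is not in the labels, and p-values therefore measure the spread between these samples only.

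Thymic epithelial cells form the scaffold on which T cells mature. In the cortex they supply the Notch ligand Dll4, which commits incoming progenitors to the T lineage, the chemokine Ccl25, which draws them in through its receptor Ccr9, and the peptides on which positive selection runs, cut by the serine protease Prss16 and by a proteasome with the subunit Psmb11. In the medulla, cells with the transcription factor Aire switch on genes of other tissues, and thymocytes that react to these products are removed. Foxn1 is the transcription factor on which the development and upkeep of both kinds of cell depend. Of the keratins, Krt8 and Krt18 pair as filaments of simple epithelium, in the thymus mainly cortical, and Krt5 marks basal and medullary epithelium.

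The lymphoma libraries held 14998988 to 36559710 counts and the thymus libraries 24543936 to 27544876. All 24 libraries carry the same batch date. Levels below are in CPM, counts relative to each library's total, scaled by the TMM method of edgeR, or in TPM as deposited where genes are compared with each other. A count of 3 corresponded to 0.0801 to 0.197 CPM in the lymphomas and 0.108 to 0.118 CPM in thymus, so the lowest members sit at the edge of what this depth can show. The 10 genes summed to 24.03 to 71.2 CPM in thymus, beside 5101 to 6027 CPM for 8 T-lineage markers such as Cd3e, and to 3.86 to 14.2 CPM in the lymphomas, beside 2185 to 4444 CPM. These genes were thus a small fraction of the RNA in both groups.

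Prss16, Tbata and Psmb11 were close to absent from every lymphoma. Prss16, the thymus-specific serine protease of cortical epithelium (chromosome 13, 22002173 to 22009742, minus strand, GRCm38), stood at 11.4, 33.7 and 25.8 CPM in thymus 1, 2 and 3. In the 21 lymphomas it ranged from 0 to 0.351 CPM with a median of 0.0798, and the group means were 23.6 ± 11.3 (SD, n = 3) and 0.116 ± 0.102 (SD, n = 21). The highest lymphoma, number 18 with 11 counts, lay far below the lowest thymus library, which had 317 counts. Summed over libraries, 1877 counts in thymus stood against 60 in all lymphomas, a 191-fold ratio of summed CPM with a 95% exact count interval of 148 to 251, which covers counting error only. In edgeR's quasi-likelihood test the log2 fold change was -7.58 (SE 0.54, adjusted p = 9.16e-10). In bulk RNA, fewer epithelial cells in a suspension and less RNA per cell cannot be told apart, here and for every gene that follows.

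Tbata, a gene named for its expression in thymus, brain and testis (chromosome 10, 61171954 to 61188841, plus strand), stood at 2.51, 5.88 and 5.88 CPM in the 3 thymus libraries. The lymphomas ranged from 0 to 0.220 CPM with a median of 0.0511, and 9 of 21 had no count. The groups did not overlap, and Tbata fell by 6.09 on the log2 scale (SE 0.67, edgeR adjusted p = 6.35e-07), with a ratio of summed CPM of 72.5 (count interval 50.5 to 108). Psmb11, the catalytic subunit that defines the thymoproteasome (chromosome 14, 54621433 to 54629556, plus strand), had 13, 47 and 32 counts in thymus, or 0.466, 1.86 and 1.17 CPM. Of the 21 lymphomas 15 had no Psmb11 count, and the other 6 held 7 counts together, with a highest level of 0.0655 CPM. The groups again did not overlap, the ratio of summed CPM was 80.3 (37.4 to 205), and the edgeR log2 fold change was -5.94 (SE 0.59, adjusted p = 1.24e-07). These genes passed the low-count filter through their thymus libraries alone, so that they were tested at all already depended on their being higher there. The catalytic subunits of the general and immune proteasome behaved otherwise: of 6 counted, 5 were tested and for all lymphomas 0 passed the threshold in either direction in edgeR, with adjusted p from 0.132 (Psmb8, log2 fold change 0.58) upward, 0.159 for Psmb5 (0.28), 0.176 for Psmb7 (0.31) and 0.286 for Psmb9 (0.88). In the unmutated set alone Psmb5 (0.43, edgeR adjusted p = 0.0195) and Psmb8 (0.78, 0.0361) were higher than in thymus, while between the sets neither passed (adjusted p = 0.0589 and 0.166).

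**Figure D1:**
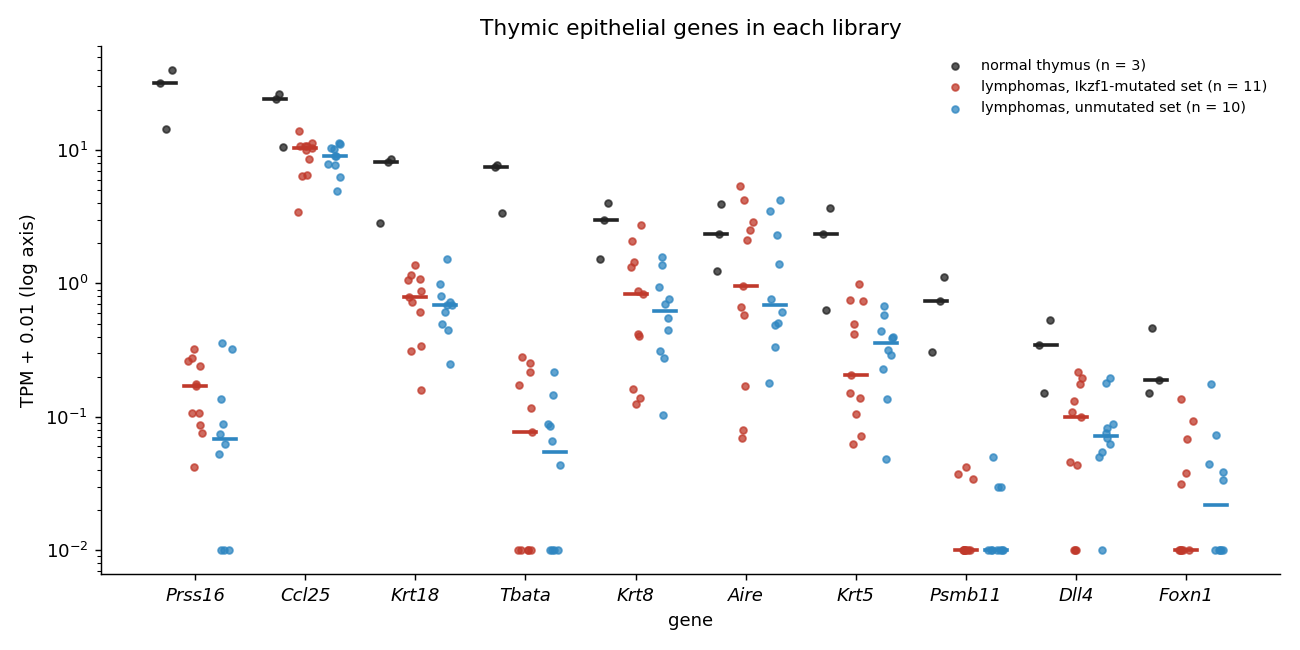
TPM + 0.01 on a log axis for each of the 10 genes in every library, as points for normal thymus (n = 3), the Ikzf1-mutated set (n = 11) and the unmutated set (n = 10), with a bar at each group's median; points at 0.01 are libraries with a TPM of 0. Prss16, Tbata, Psmb11 and Krt18 separate thymus from every lymphoma, Ccl25 lies within a narrow band in the lymphomas, and Aire spreads over a wide range that runs above the highest thymus library.

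The keratins were lower in the lymphomas but were counted in every one of them. Krt18 (chromosome 15, 102028180 to 102032027, plus strand) stood at 1.47, 4.70 and 4.35 CPM in thymus and ran from 0.0832 to 0.988 CPM in the lymphomas with a median of 0.417. All 21 lymphomas lay below the lowest thymus library, and Krt18 fell by 3.05 on the log2 scale (SE 0.40, edgeR adjusted p = 7.19e-06). Its partner Krt8 (chromosome 15, 101996698 to 102004482, minus strand) stood at 1.00, 2.84 and 2.05 CPM in thymus. In the lymphomas Krt8 ran from 0.0655 to 1.86 CPM with a median of 0.524, and 4 lymphomas, numbers 9, 17, 18 and 20, lay inside the thymus range. The log2 fold change of Krt8 was -1.69 (SE 0.64, edgeR adjusted p = 0.0468), close to the threshold of 0.05. The Krt8 call was lost with DESeq2 (adjusted p = 0.063), without the low-count filter (0.066), without thymus 1, 2 or 3 (0.065, 0.27 and 0.14) and on leaving out any 1 of 12 lymphomas (numbers 2, 4, 10, 13, 16, 19, 21, 22, 30, 32, 34 and 35; adjusted p up to 0.058). A processed pseudogene of Krt8 is annotated, with the handling of shared reads not given in the sources used here.

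Krt5 (chromosome 15, 101707070 to 101712898, minus strand) stood at 0.502, 3.16 and 1.94 CPM in thymus, the widest spread of the 10 genes between thymus libraries. The lymphomas ran from 0.0327 to 0.798 CPM with a median of 0.282, and 5 of them reached into the thymus range through its lowest library. Krt5 fell by 2.56 on the log2 scale (SE 0.57, edgeR adjusted p = 0.00187), and without thymus 2 the change was -1.93 and no longer past the threshold (adjusted p = 0.068). Across the whole keratin family, 49 genes were in the table, 11 of them without a count in any library. Of the 11 tested 5 were lower and 0 higher, beside 15.4% of all tested genes lower. Of these 5, 3 are the members, which had been chosen as epithelial genes. The lower ones beside the 3 members were Krt10, a keratin of differentiating epidermis (log2 fold change -1.42, SE 0.44, edgeR adjusted p = 0.0173), and Krt17, a basal keratin (-2.05, SE 0.72, 0.0337), the latter not past the threshold without thymus 2 or without thymus 3. Krt14, the usual partner of Krt5, differed by -0.01 (SE 0.87, edgeR adjusted p = 0.993).

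The keratin members all sit on chromosome 15, so the level of the chromosome was set beside them. Over 494 tested genes of chromosome 15, the median log2 ratio of a lymphoma to thymus ran from -0.09 to 0.56. The 3 lymphomas with the highest Krt8 level, numbers 9, 17 and 18, had medians of 0.20, -0.01 and 0.56. The 3 with the lowest, numbers 31, 14 and 12, had medians of 0.06, -0.03 and 0.42. Whether the keratin levels follow the chromosome over all 21 lymphomas was not tested.

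Foxn1 and Dll4 were low in thymus itself and did not pass the low-count filter, so each was tested alone on its CPM. Foxn1 (chromosome 11, 78357577 to 78386558, minus strand) had 7, 22 and 9 counts in thymus, or 0.251, 0.869 and 0.329 CPM. In 11 of 21 lymphomas it had no count, and 20 lay below every thymus library. Lymphoma 18, with 12 counts and 0.382 CPM, was the exception and lay inside the thymus range. The means were 0.483 ± 0.336 (SD, n = 3) and 0.0607 ± 0.0973 (SD, n = 21), a difference with p = 0.00395 in a two-sided exact permutation test over the samples, for which 0.000988 is the smallest value possible. Dll4 (chromosome 2, 119325784 to 119335962, plus strand), which blood vessel cells also make, stood at 0.179, 0.711 and 0.438 CPM in thymus and at 0 to 0.268 CPM in the lymphomas with a median of 0.103. Here 16 lymphomas lay below the thymus range and 5 within it, the means were 0.443 ± 0.266 (SD, n = 3) and 0.113 ± 0.0906 (SD, n = 21), and the exact permutation p was 0.00593. Of 12 endothelial markers 5 were tested, 0 were lower and 1 was higher (Egfl7, log2 fold change 1.55, edgeR adjusted p = 0.0252, lost with limma-voom and without thymus 1, 2 or 3), and their summed level ran from 164 to 175 CPM in thymus and 105 to 273 CPM in the lymphomas. Pecam1, Egfl7 and Eng reached the level of the low-count filter in all 3 thymus libraries and all 21 lymphomas. Tie1, Tek, Emcn and Robo4 reached it in 0 libraries of either group, so the sums rest on few of the 12 markers. In the unmutated set Eng was lower than thymus (-3.52, edgeR adjusted p = 0.00286). The part of vessel cells in the Dll4 level was not tested.

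Ccl25 stood apart from the cortical products Prss16 and Psmb11, because it was lower by a small factor. The ratio of summed CPM, thymus over lymphoma, was 2.09 for Ccl25 (95% count interval 1.93 to 2.26) and 3.50 for Dll4 (2.24 to 5.40). Ccl25 was also the most abundant of the 10 genes per length, in TPM, in every lymphoma. Ccl25 (chromosome 8, 4325210 to 4360020, plus strand) stood at 5.38, 14.4 and 12.8 CPM in thymus. The lymphomas ran from 1.97 to 7.48 CPM with a median of 5.36, and their mean was 5.03 ± 1.38 (SD, n = 21) against 10.9 ± 4.81 (SD, n = 3). Of the 21 lymphomas 12 lay below thymus 1, the lowest thymus library, and 9 lay between it and the other thymus libraries. Ccl25 fell by 1.11 on the log2 scale (SE 0.28, edgeR adjusted p = 0.00514). The call was lost without thymus 2 (-0.84, adjusted p = 0.10) and without thymus 3 (-0.95, adjusted p = 0.057), and it held without thymus 1. The first 204 bases of Ccl25 overlap the first bases of Elavl1 on the other strand, with strandedness not given in the sources used here. Elavl1, which encodes a widely made RNA-binding protein, differed between lymphomas and thymus by 0.05 on the log2 scale (SE 0.14, edgeR adjusted p = 0.834).

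Aire was the tested member whose difference from thymus did not pass the threshold, and its level varied widely among lymphomas. Aire (chromosome 10, 78030022 to 78043610, minus strand) stood at 0.897, 3.04 and 1.75 CPM in thymus and ran from 0.0425 to 3.95 CPM in the lymphomas with a median of 0.668. Of the 21 lymphomas 12 lay below the thymus range, 6 within it and 3 above it, namely number 9 with 85 counts (3.95 CPM), number 18 with 123 counts (3.92 CPM) and number 7 with 61 counts (3.12 CPM). Lymphomas 12 and 13 had 1 count each. The log2 fold change was -0.55 (SE 0.90, edgeR adjusted p = 0.676), and a p above the threshold with this error does not show that the groups are alike. The first 1664 bases of Aire overlap the start of Dnmt3l on the other strand, and Dnmt3l had 0 to 7 counts in a lymphoma and 1 to 4 in a thymus library, fewer than Aire in the high lymphomas.

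The sequence just before the transcription start is shown for 1 gene of each pattern, Tbata for the genes near 0, Ccl25 for the small decrease and Aire for the wide spread, from RefSeq on GRCm38.p6 in the direction of transcription. The capitals mark the letters TATAAA, or GACGC read on the other strand, the motifs searched on both strands, which are the core of the TATA box and of the site that Foxn1 binds. They do not overlap each other.
Tbata, chr10:61171714-61171953, plus strand: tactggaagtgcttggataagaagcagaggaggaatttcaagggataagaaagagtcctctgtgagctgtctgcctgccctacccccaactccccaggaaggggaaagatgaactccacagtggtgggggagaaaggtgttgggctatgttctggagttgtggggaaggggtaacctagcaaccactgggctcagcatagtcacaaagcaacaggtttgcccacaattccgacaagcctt
Ccl25, downstream start, chr8:4349338-4349587, plus strand: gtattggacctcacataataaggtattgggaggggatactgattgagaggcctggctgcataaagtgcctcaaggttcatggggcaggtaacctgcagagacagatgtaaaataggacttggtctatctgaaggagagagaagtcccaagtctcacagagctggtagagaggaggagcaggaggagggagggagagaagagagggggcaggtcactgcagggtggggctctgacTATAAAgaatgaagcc
Aire, chr10:78043611-78043860, minus strand: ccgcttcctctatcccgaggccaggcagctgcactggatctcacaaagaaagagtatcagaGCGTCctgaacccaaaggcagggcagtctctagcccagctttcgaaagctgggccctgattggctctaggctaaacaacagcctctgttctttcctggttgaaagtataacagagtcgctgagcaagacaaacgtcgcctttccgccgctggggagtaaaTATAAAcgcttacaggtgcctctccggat
The Tbata window held neither motif, the Ccl25 window held TATAAA at position -16 from the start, and the Aire window held TATAAA at -29 and GACGC at -189. Of 32851 windows of 250 bases before RefSeq starts, 12.4% held TATAAA and 22.6% held GACGC. A match is a description of these letters and not a bound site.

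Over all genes, 13121 were tested for lymphomas against thymus and 15.4% were called lower at an edgeR adjusted p below 0.05, 30.8% in either direction. Of the 10 members 8 were tested, 7 were lower and 0 higher, with a median log2 fold change of -2.80 beside 0.07 for all tested genes. All lymphomas lay below every thymus library for 7.93% of the tested genes, and among the members for Prss16, Tbata, Psmb11 and Krt18. Since Prss16, Tbata and Psmb11 entered through thymus alone, this count describes the members and is no support for a common direction. The calls for Prss16, Tbata, Psmb11 and Krt18 held in each alternative in which they were tested. Over all genes the split of calls depended on the scale: 2022 lower against 2022 higher here, 2604 against 1417 on log2(TPM + 1), and 2682 against 1612 with limma-voom.

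**Figure D2:**
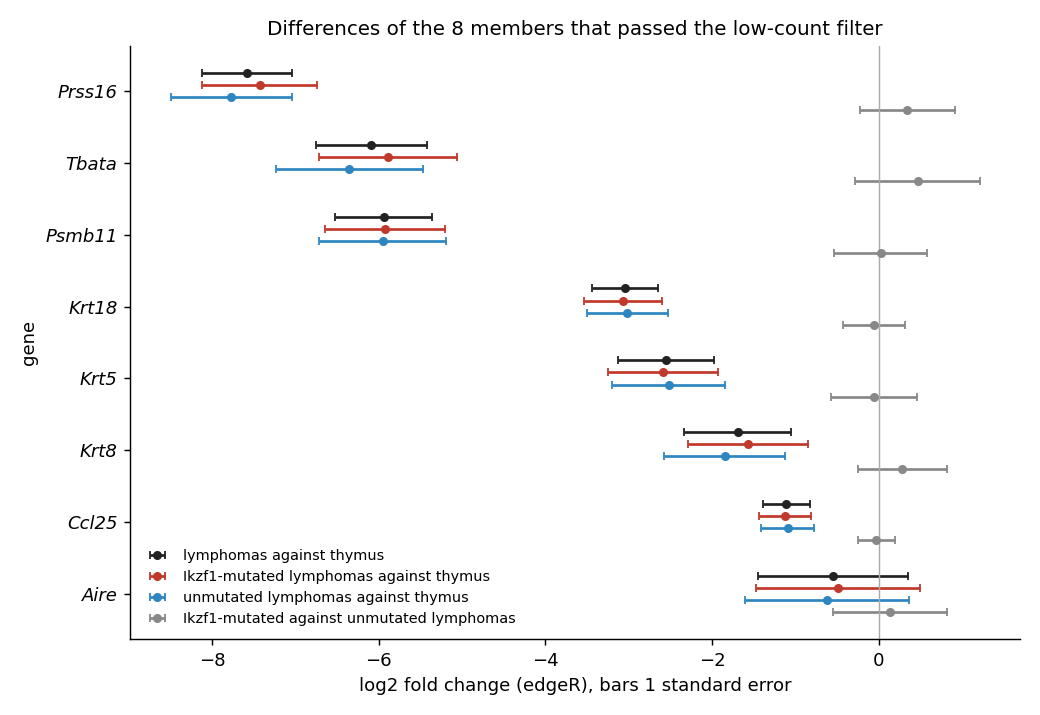
Log2 fold change from edgeR with 1 standard error for the 8 members that passed the low-count filter, for all lymphomas, the Ikzf1-mutated set and the unmutated set against thymus, and for the mutated against the unmutated set. The values for all lymphomas against thymus run from -7.58 for Prss16 to -0.55 for Aire, and all values between the 2 sets lie near 0 with errors that include 0.

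None of the 10 genes passed a test between the Ikzf1 mutation sets. Against thymus, 6 of 8 members were lower in the mutated set, where 12.9% of all tested genes were lower and 26.0% changed, and 6 of 8 in the unmutated set, where 17.3% were lower and 35.4% changed; both comparisons use the same 3 thymus libraries. Krt8 and Aire were the members not past the threshold, Krt8 with -1.57 (SE 0.72, edgeR adjusted p = 0.108) in the mutated and -1.85 (SE 0.73, 0.0503) in the unmutated set, and Aire with -0.49 (0.746) and -0.62 (0.653). The log2 fold change of Prss16 was -7.43 in the mutated and -7.77 in the unmutated set, that of Tbata -5.89 and -6.35, and that of Psmb11 -5.93 and -5.95. Psmb11 had 4 counts in the 11 mutated and 3 in the 10 unmutated lymphomas.

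Between the sets themselves 0 of 8 members passed in edgeR (or in DESeq2). Of all tested genes 5.38% were called at an edgeR adjusted p below 0.05, 2.95% lower and 2.43% higher in the mutated set. For 8 genes, 0 calls is near that share. No member had an unadjusted edgeR p below 0.05, a limit for which the share of all genes is not given here. The log2 differences, mutated minus unmutated, ran from -0.06 (Krt5 and Krt18) to 0.47 (Tbata, SE 0.75), with edgeR adjusted p from 0.752 to 0.988. Foxn1 averaged 0.0536 CPM in the mutated and 0.0686 CPM in the unmutated set (permutation p = 0.742), and Dll4 0.115 and 0.110 CPM (permutation p = 0.889). Both sets contained lymphomas near the top and near the bottom of Aire: the mutated set ran from 0.0425 to 3.95 CPM and the unmutated set from 0.131 to 3.92 CPM. The standard errors ran from 0.22 for Ccl25 to 0.75 for Tbata. Of 109 tested genes in the other lists 6, or 5.5%, passed between the sets in edgeR, a share near the 5.38% of all genes: the Notch ligand Jag1 (log2 difference 3.53, adjusted p = 0.0495), the stem cell factor receptor Kit (-4.55, 0.0101), the collagen chain Col1a2 (2.42, 0.0493), the endothelial coreceptor Eng (3.31, 0.0134), and the globins Hbb-bt (2.10, 0.0347) and Hbb-bs (1.902, 0.0475). Jag1 reached 49.5 CPM in 1 mutated lymphoma and had a median of 0.418 CPM in that set and 0.371 CPM in the other.

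Among the members, the order of abundance changed between thymus and lymphoma. On the TPM scale, which divides by gene length, thymus was led by Prss16 (28.6 ± 13.01, SD, n = 3) and Ccl25 (20.4 ± 8.63), followed by Krt18 (6.52), Tbata (6.14), Krt8 (2.83), Aire (2.50), Krt5 (2.21), Psmb11 (0.712), Dll4 (0.333) and Foxn1 (0.258). Each gene was above the next in all 3 thymus libraries except Krt18 above Tbata, in 2 of 3. In the lymphomas Ccl25 led (9.04 ± 2.49 TPM, SD, n = 21) and was above Aire in 21 of 21. Aire (1.61) was above Krt8 (0.827) in 15 of 21, and Krt8 above Krt18 (0.737) in 11 of 21, so that the order of these neighbours changed between lymphomas. In thymus, the means of Krt8, Aire and Krt5 lay within 1 SD of each other, although their order was the same in all 3 libraries. Prss16, first in thymus, was sixth at 0.132 TPM, between Krt5 (0.354) and Dll4 (0.0813), and above Dll4 in 12 of 21.

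Counted within each library, Prss16, Tbata and Psmb11 gave 58.2% to 59.7% of all counts of the 10 genes in thymus and 0.490% to 7.41% in the lymphomas. Ccl25 gave 20.3% to 22.6% in thymus and 31.9% to 90.7% in the lymphomas, and Aire 3.10% to 4.27% and 0.926% to 38.6%. The shares hardly moved among the 3 thymus libraries although their levels did. Aire had more counts than Prss16 in 19 of 21 lymphomas and in 0 of 3 thymus libraries. In TPM, Krt18 exceeded its partner Krt8 by 1.89 to 2.74 times in thymus, while the ratio ran from 0.419 to 5.80 in the lymphomas with a median of 0.952.

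**Figure D3:**
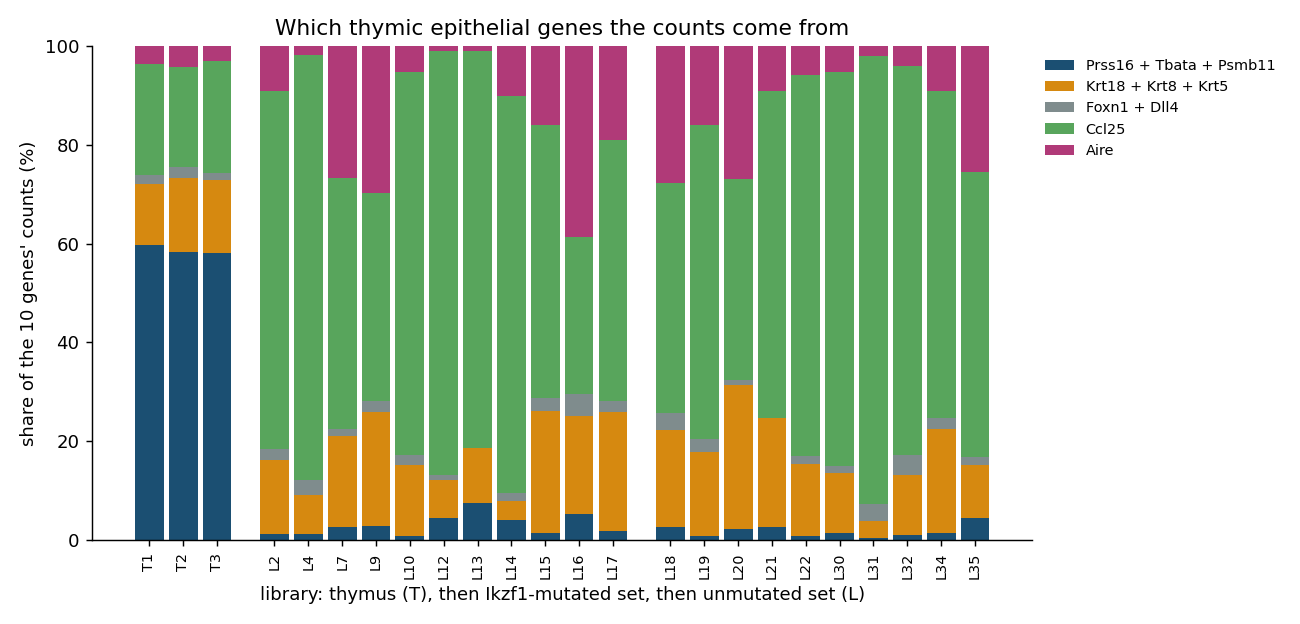
Share of the summed counts of the 10 genes, in percent, taken by Prss16, Tbata and Psmb11 together, by the 3 keratins, by Foxn1 and Dll4, by Ccl25 and by Aire, as 1 stacked bar per library. The 3 thymus bars are nearly the same, with 58.2% to 59.7% from Prss16, Tbata and Psmb11, while that share is at most 7.41% in any lymphoma and Ccl25 takes 31.9% to 90.7%.

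Thymus 1 was the lowest thymus library for each of the 10 genes. Thymus 2 exceeded it 2.34-fold (Tbata) to 6.29-fold (Krt5) and thymus 3 1.31-fold (Foxn1) to 3.86-fold (Krt5) on the CPM scale. Over all tested genes the median of these ratios was 1.02 and 0.989, and the 95th percentile 1.84 and 1.48. The thymus mean of each member therefore rests on libraries that differ together. Leaving out thymus 2 reduced the members' calls against thymus from 7 to 4 of 8 (Prss16, Tbata, Psmb11 and Krt18). Over all tested genes the calls fell as well, from 4044 to 1929 without thymus 2. They fell to 2278 without thymus 1 and to 2545 without thymus 3, so the loss of calls is not particular to the members.

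Across the 21 lymphomas the keratins and Aire varied together, and the relations of Ccl25 with them did not pass. On the log2(CPM + 1) scale Krt8 correlated with Krt18 (Pearson r = 0.69, Spearman rho = 0.67, adjusted permutation p = 0.0018), the only one of 5 relations chosen from the genes' known roles that had enough counts, and r was 0.68 when the 2 lymphomas farthest from the Krt8 median were dropped. The relations that follow were chosen after the values were seen, and p-values are adjusted over all 18 that were computed. Krt8 correlated with Aire (r = 0.85, rho = 0.83, adjusted permutation p = 9e-05), with r = 0.84 without the 2 farthest lymphomas, 0.86 within the mutated set and 0.85 within the unmutated set. Krt5 correlated with Krt8 (r = 0.77, rho = 0.80, adjusted permutation p = 0.00024) and with Aire (r = 0.70, rho = 0.78, 0.00165), and Krt18 with Krt5 (r = 0.69, rho = 0.71, 0.00165) and with Aire (r = 0.61, rho = 0.53, 0.00708). Ccl25 gave r = 0.18 with Krt18, 0.07 with Krt8, 0.15 with Krt5 and 0.06 with Aire, with adjusted permutation p from 0.561 to 0.79. These values moved with the lymphomas included: Ccl25 with Aire gave r = 0.41 and with Krt5 r = 0.30 when the 2 farthest were dropped, and the latter was 0.41 within the mutated and -0.38 within the unmutated set. Ccl25 and the overlapping Elavl1 gave r = 0.34 and rho = 0.02 (adjusted permutation p of r = 0.211). Of the 18 relations 10 passed, and Prss16, Tbata, Psmb11 and Dll4 had too few counts in the lymphomas for any.

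Csn2, a gene known to depend on Aire, varied with it. It encodes the milk protein beta-casein, one of the tissue genes that Aire switches on in the medulla, and had 3, 13 and 8 counts in thymus and 0 to 169 in the lymphomas. The 3 lymphomas highest in Csn2 counts were number 18 with 169, number 9 with 116 and number 17 with 108. On the CPM scale 7 of 21 lay above the thymus range of 0.108 to 0.513. Aire and Csn2 correlated over the 21 lymphomas (r = 0.87, rho = 0.89, adjusted permutation p = 9e-05), with r = 0.80 when the 2 lymphomas farthest from the Aire median were dropped, 0.84 within the mutated and 0.90 within the unmutated set. Between lymphomas and thymus Csn2 differed by 1.85 on the log2 scale without passing the threshold (edgeR adjusted p = 0.392). Fezf2, the other transcription factor of medullary antigen expression, had 19 counts in lymphoma 9, 17 in lymphoma 18 and 14 in lymphoma 17, its 3 highest, and no count in 6 lymphomas. The other 2 genes of the Aire-dependent list in the table, Ins2 and Crp, had at most 1 and 2 counts in any library, too few for a comparison with Aire. The difference of Fezf2 from thymus was -0.95 (edgeR adjusted p = 0.487).

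Markers of other cells moved with Aire as well. Aire correlated with the summed CPM of 8 dendritic cell markers (r = 0.76, rho = 0.75, adjusted permutation p = 0.00036) and of 5 B cell markers (r = 0.65, rho = 0.58, 0.00317), while the values for 11 macrophage markers (r = 0.30, 0.263), 10 fibroblast markers (r = 0.10, 0.746) and library depth (r = 0.30, 0.263) did not pass. Krt8 correlated with the macrophage markers (r = 0.58, rho = 0.68, adjusted permutation p = 0.0112). The dendritic cell markers summed to 19.5 to 28.4 CPM in thymus and 2.28 to 57.4 CPM in the lymphomas, and the B cell markers to 40.9 to 68.3 and 1.67 to 187 CPM. The part of these cells in the Aire and keratin levels was not tested. As a description without a test, the genes whose levels ordered the 21 lymphomas most like Aire were the prostaglandin synthase Ptgs2 (rho = 0.92), the sialyltransferase St6galnac2 (0.89) and Csn2 (0.89). Ptgs2 and St6galnac2 averaged only 0.257 and 0.245 CPM in the lymphomas, not far above the level of 3 counts, and Csn2 1.10 CPM. Those most like Ccl25 were the synaptic adhesion gene Nlgn3 (rho = 0.78), the potassium channel Kcnn4 (0.75) and the receptor Gpr171 (0.74).

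**Figure D4:**
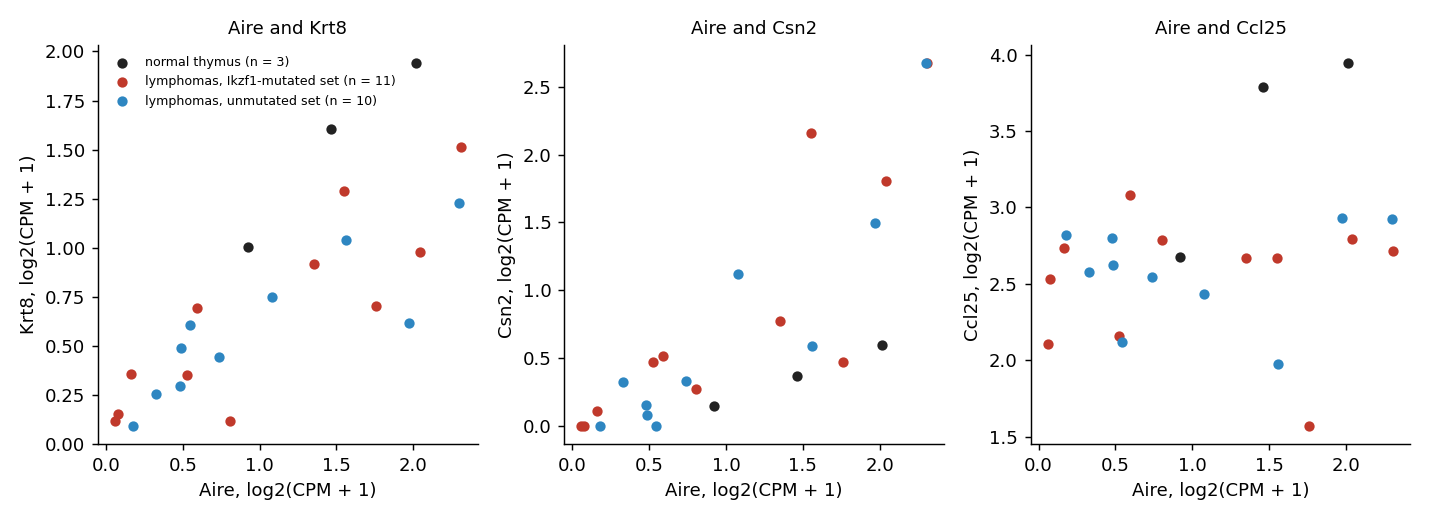
Levels of Krt8, Csn2 and Ccl25 against Aire, all as log2(CPM + 1), with 1 point per library for normal thymus, the Ikzf1-mutated set and the unmutated set. Over the 21 lymphomas Krt8 and Csn2 are higher where Aire is higher (r = 0.85 and 0.87), in both sets, and Ccl25 gave r = 0.06; lymphomas 9 and 18 nearly coincide at the upper right of the Csn2 panel.

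Other genes of the thymic epithelium are read against the 15.4% of all tested genes that were lower. Of 10 further cortical genes 7 were tested and 1 was lower, a share near that background, namely Ctsl, the lysosomal protease of class II presentation, at 907 to 1091 CPM in thymus and 44.0 to 455 CPM in the lymphomas (log2 fold change -2.47, edgeR adjusted p = 0.000289). The next by p were Kitl (1.70, adjusted p = 0.191), Cxcl12 (-1.21, 0.258) and Fgfr2 (-1.05, 0.443). Ctsl and Cxcl12 are also made by other cells, so they do not mark epithelium alone. Slc46a2, a cortical epithelial transporter too low to be tested, had 0, 10 and 6 counts in thymus and 0 in all 21 lymphomas. Of 17 medullary genes 9 were tested and 2 were lower, Avil, which marks tuft cells (-2.64, edgeR adjusted p = 0.000774), and Krt17, whose call was lost without thymus 2 and without thymus 3 (adjusted p up to 0.247); Relb gave -1.22 (0.102) and Tnfrsf11a 2.29 (0.11). Ccl19 had no count in any library and Ccl21a at most 1. These medullary chemokines belong to families of near-identical copies, and whether shared reads were discarded in counting was not tested.

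Of 14 general epithelial genes 11 were tested and 3 were lower: Epcam, the epithelial adhesion molecule, at 7.50 to 10.9 CPM in thymus and 0.395 to 5.29 CPM in the lymphomas (log2 fold change -2.38, edgeR adjusted p = 0.00275), the splicing regulator Esrp1 (-3.38, 0.0015) and the protease inhibitor Spint2 (-1.38, 0.000405). Grhl2 was the next by p (3.61, edgeR adjusted p = 0.0911). The 14 genes summed to 391 to 487 CPM in thymus, far more than the 24.03 to 71.2 CPM of the 10 members. Their summed level in the lymphomas was 88.8 to 285 CPM. The part of cells other than epithelium in these levels was not tested. Of 9 transcription factors that build the organ 3 were tested and 2 were lower, Pax1 (-5.20, edgeR adjusted p = 3.75e-06), with 15, 40 and 19 counts in thymus and 0 to 2 in a lymphoma, and Hoxa3 (-3.28, 0.00143). Pax1 and Esrp1 reached the level of the low-count filter in 0 lymphomas, Hoxa3 in 1 and Avil in 2, so these also entered the test through thymus, as Prss16 did. Epcam had 209, 275 and 246 counts in thymus 1, 2 and 3.

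On the receiving side of these signals, 7 receptors were tested and 1 was lower, no more than the 15.4% of all tested genes would give. This was Ccr7, which guides thymocytes to the medulla, at 72.8 to 84.7 CPM in thymus and 0.719 to 55.2 CPM in the lymphomas (log2 fold change -2.81, edgeR adjusted p = 0.00348). Ccr9, the receptor for Ccl25, lay below the thymus range in 20 of 21 lymphomas and above it in 1, with 1001 to 1155 CPM in thymus and 0.576 to 1280 CPM in the lymphomas, and did not pass (-1.85, edgeR adjusted p = 0.187). Notch1, the receptor for Dll4, lay above the thymus range in 17 and below it in 4 lymphomas, with a log2 fold change of 2.14 that did not pass (edgeR adjusted p = 0.0725), and Il7r gave 1.71 (0.131). Of the 4 other Notch ligands 3 were tested and 0 passed in edgeR, Dll3 with 1.55 (adjusted p = 0.166), Jag2 with 0.43 (0.46) and Jag1 with 1.86 (0.463).

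Markers of the other cells that a suspension can hold moved in both directions, read against 15.4% of all tested genes higher and 15.4% lower. Of 11 macrophage markers 11 were higher in the lymphomas, among them Marco (log2 fold change 4.70, edgeR adjusted p = 0.00103) and Cd68 (1.76, 0.00117), with a summed level of 104 to 168 CPM in thymus and 237 to 1038 CPM in the lymphomas. Of these calls 8 held in each alternative, while Adgre1 was lost in 10 of 31 (limma-voom, the TPM scales, and without thymus 1, 2 or 3 or lymphoma 17, 21 or 22), Csf1r without thymus 1, 2 or 3, and C1qa without thymus 1 or 3. Of 10 fibroblast markers 7 were higher, among them Col3a1 (3.90, edgeR adjusted p = 0.000668) and Col1a1 (4.23, 0.000839), with 10.4 to 14.7 and 52.05 to 1287 CPM; 3 of the 7 calls held in each alternative, while Pdgfra, Col1a2, Dcn and Pdgfrb were each lost without thymus 1 and in 1 or more other alternatives, all of them thymus 2 or 3 left out, limma-voom or log2(TPM + 1). Neutrophil markers went the other way, 8 of 9 lower, among them Camp (-4.29, edgeR adjusted p = 0.000914) and S100a8 (-3.58, 0.00103), with 56.7 to 103 and 0.327 to 68.2 CPM; Ngp and Cxcr2 were lost without thymus 1 and Elane with DESeq2, and Elane and Mpo reached the filter level in 1 and 0 lymphomas. Of 8 dendritic cell markers 1 was lower (Siglech, -2.64, edgeR adjusted p = 0.00969, and 0.0655 without thymus 2), and 0 of 5 B cell markers passed. Of the 8 T-lineage markers 4 were lower, Cd3e (-0.998, edgeR adjusted p = 0.00173), Cd3g (-0.96, 0.00348), Cd3d (-0.79, 0.0206) and Cd5 (-1.91, 0.0393). Cd3d was lost without thymus 1 or 2, and Cd5 in 10 of 31 alternatives (DESeq2, limma-voom, no filter, the TPM scales, and without thymus 1, 2 or 3 or lymphoma 30). Of 6 tested erythroid markers 1 was higher (Slc4a1, 6.83, edgeR adjusted p = 0.0182, lost on the TPM scales and without thymus 1, 2 or 3), and the 1 adipocyte marker tested did not pass (Cfd, 0.15, 0.942). The 3 parathyroid markers did not pass the low-count filter. Their summed level was 0.110 to 0.237 CPM in thymus and 0 to 2.18 CPM in the lymphomas.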

How the data were processed

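Poly(A) RNA from suspensions of lymphoma cells or thymocytes was sequenced in 24 samples. Reads had been handled with HISAT2 2.0.1, HTSeq 0.6.1, cutadapt 1.9.1, edgeR and SAMtools on GRCm38.p6, per the submitters' processing notes, with settings and strandedness not given in the sources used here. Raw counts per gene symbol, not normalized, were deposited for 21878 genes by the authors, with a TPM table for the same libraries. In the latter, a repeated symbol was left out of the TPM alternatives. The lymphomas were put in the Ikzf1-mutated or unmutated set by which lymphoma columns the authors' filtered count tables hold. The authors' CPM table for a Grb10 comparison was left aside.

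Counts were fitted over all genes with edgeR 4.0.16 (R 4.3.3): filterByExpr, TMM scaling, quasi-likelihood tests and Benjamini-Hochberg adjustment over all 13121 genes tested, with a threshold of 0.05. The fit of all lymphomas against thymus had 2 groups, and the comparisons by mutation set came from 1 model of 3 groups. Members below the filter were tested on TMM-scaled CPM by permuting samples, over all 2024 splits against thymus and with 100000 resamples between the sets. Correlations used log2(CPM + 1) with 100000 permutations (SciPy 1.17.1), where at least 11 lymphomas had at least 3 counts. The code was tested on simulated counts with 200 genes changed 2-fold or 4-fold. For lymphomas against thymus it found 48% of the 2-fold and 66% of the 4-fold changes, and 6.6% of its calls were unchanged genes. Between the mutation sets these shares were 58%, 79% and 3.5%. A gene that did not pass may therefore still differ. Alternatives were DESeq2 1.42.0, its size factors, limma-voom (limma 3.58.1), no low-count filter, log2(TPM + 1) and log2(TPM + 0.1) of genes with a mean TPM of at least 0.1, and leaving out each library. The named genes are the 10 members, up to 4 genes of each list by the smallest p, list genes past the threshold between the mutation sets, up to 4 keratins, and the 3 genes most alike in Spearman rho to members with at least 10 counts in at least 11 lymphomas; others were added after their values were seen. The members and lists were chosen with earlier results of these data known. A gene of the organ-building list is not reported here. Gene positions are from GENCODE M21.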

Additional observations from a re-analysis of the deposited data

Results flagged for a closer look

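In the unmutated set Foxn1 was highest in lymphoma 18, at 0.382 CPM (12 counts), and the gap to the next lymphoma was large against the whole range of the 10 values. The gap was 0.677 of the range, where values above 0.466 stand out. Chance passes that limit in about 1 in 20 groups only where values are normally distributed. Foxn1 had no count in 5 of these 10 lymphomas, so that rate need not hold here. Each of the 10 members was examined in this set. The same library had 11 counts of Prss16 and 123 of Aire.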

How the results depend on the processing

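Against thymus, Prss16, Tbata, Psmb11 and Krt18 kept their direction and call in every alternative in which they were tested, and Aire passed in none. Psmb11 and Foxn1 were not tested on TPM with a minimum of 0.1. For all lymphomas the members called numbered 6 to 9 across the other tools, scales and filters, and 4 to 7 on leaving out a library, with 4 without thymus 2. The losses were those of Krt8, Krt5 and Ccl25 given above, and the cause was not tested. Between the mutation sets no alternative gave a call, and the sign of the small log2 differences turned in some. It turned for Aire with limma-voom (-0.22), for Psmb11 with DESeq2 (-0.050), limma-voom (-0.19) and unfiltered log2(TPM + 1) (-0.00040), for Ccl25 on log2(TPM + 1) with and without a filter (0.048) and on log2(TPM + 0.1) (0.048), for Krt18 on the same scales (0.034 and 0.027), and for Krt5 on log2(TPM + 1) with and without a filter (0.0049). On leaving out each library in turn these differences ran from -0.17 to 0.54 for Aire, -0.10 to 0.054 for Ccl25, -0.17 to 0.17 for Krt18, -0.31 to 0.11 for Krt5, -0.0015 to 0.55 for Krt8 and -0.46 to 0.39 for Psmb11. Aire in the mutated set against thymus ran from -0.81 to 0.035, above 0 without thymus 2. The genes called between the sets numbered 706 with edgeR and 1275 with DESeq2. For all lymphomas against thymus they fell from 4044 to 2278 without thymus 1, 1929 without thymus 2 and 2545 without thymus 3. No paired analysis was possible because lymphoma and thymus numbers name separate samples and the mutation sets share no number. Psmb11, Foxn1 and Tbata were the members most often without a count, in 15, 11 and 9 lymphomas, and the part of depth in this was not tested.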
